A study of Mus musculus with 45 samples.

Results

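LM2 was compared with its sister line LM1, both grown in control medium, over all autosomal genes. Each line was represented by 3 cultures (6 of the 45 libraries of the series), and 13346 of the 27336 autosomal genes listed passed the filter on low counts and were tested. Both are mouse mammary tumour lines recovered from lung after their common parent, Myc310, had been injected into the mammary fat pad. Myc310 came from a tumour of an MMTV-cMYC mouse, in which the mouse mammary tumour virus promoter drives MYC in mammary epithelium, and the donor mouse had borne multiple tumours. LM1, LM2 and Myc310 therefore share the transgene, and LM1 and LM2 also share the passage through a lung. All cultures used here were seeded at 250000 cells per well in medium with serum, glutamine, insulin, hydrocortisone and EGF, and none was deprived of cysteine or cystine. The labels describe a change of medium after 24 h, followed by 6 h in control medium, for every sample. The study's methods name LM1 and Myc310, but not LM2, for that step. Whether the LM2 cultures were also refed is therefore not certain, and an effect of fresh medium cannot be told apart from a difference between the lines. The comparison answers how far 2 isolates of the same parent, taken by the same procedure, differ from each other without treatment. Each line is 1 isolate from digested whole lung, so what belongs to the line and what belongs to that isolation cannot be told apart. The study's text calls the sister lines biological replicates of each other, which would make the libraries of a single line technical replicates. The p-values measure only the spread between the 3 samples of a line, which are called cultures here and may be technical.

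As background, a line recovered from a metastasis descends from the cells of the primary line that reached the organ and grew there, and different isolates can carry different subsets of the parent's variety. Tumour lines of this kind commonly differ in chromosome content, in genes kept on or off by DNA methylation and chromatin, and in programmes that respond to signals, such as sterol synthesis, the interferon response and the amino acid response. Beside the LM2 and LM1 values, the level in Myc310 is given, and where useful that in LM3, a further lung-derived sister line. LM2 minus Myc310 and LM1 minus Myc310 share the Myc310 libraries, so they are only set side by side.

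The deposited values were counts per gene. Libraries of LM1 held 19521444 to 22238117 counts and those of LM2 22442103 to 22795359. Levels are given as CPM, which are counts scaled by the TMM method to a library total of 1000000. They do not correct for gene length and so compare a gene between lines, not genes with each other. Values with ± are the mean and SD over the 3 cultures of a line. Between 15981 and 16252 genes had a count in LM1 libraries and 16743 to 16773 in LM2 libraries. Mitochondrially encoded genes took 1.95 to 2.20% of the counts in LM1 and 1.29 to 1.75% in LM2. The epithelial adhesion gene Cdh1 had 1, 0 and 0 counts in the LM1 libraries and 0, 0 and 0 in the LM2 libraries, and Epcam had 0, 1 and 0 in LM1 and 0, 0 and 0 in LM2. These defining epithelial markers were thus at or near 0 in both lines, although Krt8 and Krt18, the keratins of simple epithelium, were high. The mesenchymal filament gene Vim stood at 3747 ± 75.6 CPM in LM1 and 3282 ± 44.1 CPM in LM2.

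LM2 and LM1 differed at many genes, and the large differences were mostly increases in LM2. In the quasi-likelihood test of edgeR, adjusted over all genes tested by the method of Benjamini and Hochberg (threshold 0.05), 3607 autosomal genes (27.0%) were higher in LM2 and 3217 (24.1%) were lower. Past 2-fold the split was uneven, with 992 genes (7.43%) higher and 241 (1.81%) lower. With a filter of at least 10 counts in every library these were 314 and 66. The median log2 fold change over all autosomal genes tested was 0.00027. Normalization brings such a median near 0, so it does not show whether levels shifted in common. Most of the 2-fold increases began from very low levels: 616 of the 992 were under 1 CPM in LM1, and 225 reached 10 CPM in LM2. Of the 241 decreases past 2-fold, 169 were under 1 CPM in LM2 and 50 were at or over 10 CPM in LM1.

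The 12 largest increases among protein-coding genes that reached 10 CPM in LM2 included the extracellular matrix genes Efemp2, Emilin2 and Emilin1. Matrix genes were also among the 12 largest decreases, namely Col9a1 and Ogn. Efemp2 (fibulin-4, needed for elastic fibre assembly; chr19:5473954-5482517, plus strand) was at 0.0516, 0.0452 and 0.188 CPM in LM1 against 17.4, 19.1 and 17.7 CPM in LM2. Efemp2 was higher in LM2 (log2 fold change 7.52, standard error 0.21, adjusted p = 2.00e-25). Emilin2, a glycoprotein of elastin microfibrils, was at 1.39, 1.22 and 1.36 CPM in LM1 against 81.2, 79.9 and 76.3 CPM in LM2. Emilin2 was higher in LM2 (log2 fold change 5.94, standard error 0.11, adjusted p = 5.08e-30). Its relative Emilin1 was at 0.773, 0.994 and 1.08 CPM in LM1 against 16.3, 14.3 and 15.1 CPM in LM2. Emilin1 was higher in LM2 (log2 fold change 4.03, standard error 0.18, adjusted p = 7.67e-20). No LM1 culture overlapped any LM2 culture for Efemp2, Emilin2 or Emilin1. The levels in Myc310 differed among them, with 8.64 ± 0.992 CPM for Efemp2, 17.8 ± 0.612 CPM for Emilin2 and 0.181 ± 0.119 CPM for Emilin1.

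Pf4, a chemokine known from platelets as platelet factor 4, was at 0.619, 1.08 and 1.74 CPM in LM1 against 40.8, 42.3 and 40.1 CPM in LM2. Pf4 was higher in LM2 (log2 fold change 5.18, standard error 0.16, adjusted p = 5.45e-23). Its level was 0.595 ± 0.0962 CPM in Myc310 and 1.25 ± 0.229 CPM in LM3. All LM2 cultures were thus far above all LM1 cultures and above both the parent and the third sister line. Of the lines recovered from lung after a further injection, LM2-LM was at 83.7 ± 2.99 CPM. LM1-LM was at 1.11 ± 0.266 CPM and LM3-LM at 2.43 ± 0.828 CPM. The study calls LM2-LM and LM3-LM replicates of LM1-LM, which came from injected LM1. Descent of LM2-LM from LM2 is not stated there. Neo1 (neogenin, a receptor for netrins and repulsive guidance molecules) was at 1.60, 1.40 and 1.36 CPM in LM1 against 38.1, 39.6 and 40.2 CPM in LM2. Neo1 was higher in LM2 (log2 fold change 4.79, standard error 0.094, adjusted p = 1.13e-29). Here LM1 stood apart from LM2, Myc310 and LM3, since Myc310 had 66.7 ± 3.92 CPM and LM3 32.6 ± 0.130 CPM. LM1 likewise stood apart for Zfp518b, a zinc finger gene with 0.683 ± 0.0997 CPM in LM1 and 23 ± 1.24 CPM in LM2 beside 23.8 ± 1.51 CPM in Myc310. The same held for Ksr2, a scaffold of the RAF-MEK-ERK cascade with 0.394 ± 0.179 CPM in LM1 and 13.4 ± 0.249 CPM in LM2 beside 9.57 ± 1.40 CPM. The remaining increases reported here had log2 fold changes of 6.13 for the bicarbonate transporter Slc4a5 and 5.30 for the tubulin Tuba8. The synaptic scaffold Shank3 had 4.82 and the acyl-CoA synthetase Acsf2 4.36, likewise with no overlap between the lines. In 8 of the 12 the Myc310 mean lay between those of LM1 and LM2, in 2 it was above both and in 2 below both.

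Among the 12 largest decreases were a Wnt receptor and components of BMP and TGF-beta signalling. Fzd6, a Frizzled receptor for Wnt ligands (chr15:39006034-39038188, plus strand), was at 20.6, 21.1 and 20.0 CPM in LM1 and had no count in any LM2 library. This makes it at least 159-fold lower against a floor of 3 counts per library. Bmp6, a BMP ligand, was at 15, 15.6 and 13.1 CPM in LM1, with 0, 2 and 0 counts in the LM2 libraries (at least 113-fold lower). The genes differed in which line resembled the parent, as Myc310 had 11.1 ± 0.473 CPM of Fzd6 but only 0.466 ± 0.150 CPM of Bmp6. LM3 had 22.8 ± 0.539 and 0.307 ± 0.0465 CPM. Eng (endoglin, a co-receptor for TGF-beta and BMP ligands) was at 173, 177 and 173 CPM in LM1 against 5.18, 6.92 and 6.48 CPM in LM2. Eng was lower in LM2 (log2 fold change -4.78, standard error 0.067, adjusted p = 3.84e-34). Its level of 1.86 ± 0.357 CPM in Myc310 and 10.5 ± 0.164 CPM in LM3 was also far below that in LM1. Of the lines recovered from lung after a further injection, LM1-LM had 189.6 ± 13.2 CPM, LM2-LM 97.8 ± 2.60 CPM and LM3-LM 4.92 ± 0.293 CPM.

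Sort1 (sortilin, a sorting receptor) was at 87.4, 92.0 and 94.4 CPM in LM1 against 20.9, 18.8 and 18.2 CPM in LM2. Sort1 was lower in LM2 (log2 fold change -2.21, standard error 0.070, adjusted p = 1.08e-23). Gsdmd, the pore-forming effector of pyroptosis, was at 19.7, 19.8 and 18.7 CPM in LM1 against 3.51, 4.30 and 3.91 CPM in LM2. Gsdmd was lower in LM2 (log2 fold change -2.27, standard error 0.091, adjusted p = 6.91e-21). Nup210, a nuclear pore membrane protein, was at 25.1, 23.1 and 25.5 CPM in LM1 against 5.13, 5.16 and 4.65 CPM in LM2. Nup210 was lower in LM2 (log2 fold change -2.26, standard error 0.087, adjusted p = 2.46e-21). In each of these the 3 LM1 cultures lay above the 3 LM2 cultures, with Myc310 at 29 ± 1.15 CPM, 0.535 ± 0.211 CPM and 22.3 ± 1.74 CPM respectively. The other genes of this group had log2 fold changes of -3.99 for Enpp4, -3.26 for the adhesion receptor Adgrf5, -2.90 for the collagen Col9a1, -2.79 for the matrix proteoglycan Ogn and -2.15 for Tmeff1. Pros1 (protein S, a ligand of TAM receptors) was at 13.0 ± 1.02 CPM in LM1 and 3.13 ± 0.377 CPM in LM2. The Myc310 mean lay between the LM1 and LM2 means for 9 of the 12 and below both for 3. Among the increases Efemp2, Emilin2, Tuba8, Shank3, Neo1 and Acsf2, and among the decreases Fzd6, Bmp6, Eng, Ogn and Sort1, each overlap a gene on the other strand, as do some of the genes named below. The library kit was directional, but the strand setting of the counting is not given in the sources used here, so how reads of those partners were assigned is uncertain.

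**Figure D1:**
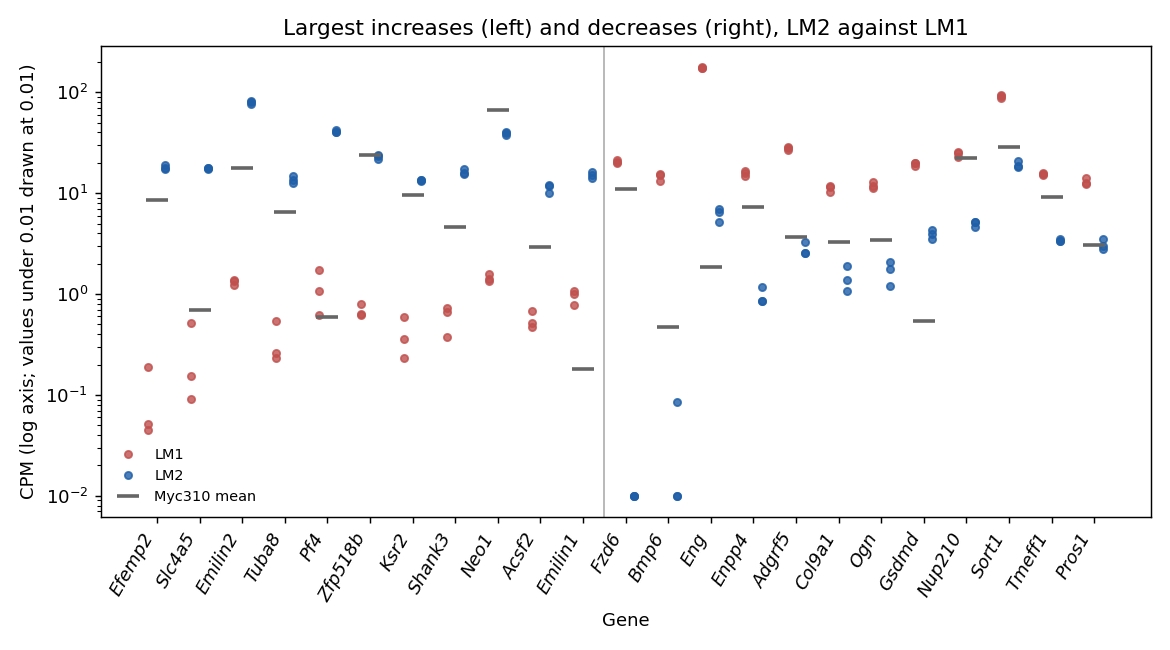
Level in CPM (log axis) of 11 of the 12 largest increases and the 12 largest decreases in each of the 3 LM1 and 3 LM2 cultures, with a grey dash for the Myc310 mean and values under 0.01 drawn at 0.01. The LM1 and LM2 cultures do not overlap for any of the 23 genes, which the rule for choosing them required, and the grey dash changes its position relative to the lines from gene to gene.

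A gene is called at the floor here where it had at most 3 counts in every library of a line. A further set of genes was at the floor in one line and had a mean of at least 2 CPM in the other. There were 28 such genes at the floor in LM1 (25 protein-coding) and 7 in LM2. Vldlr, a lipoprotein receptor, had 2, 0 and 2 counts in LM1 and 201, 240 and 184 in LM2, at least 62.5-fold higher, with 14.1 CPM in Myc310. Cacna1c, a calcium channel subunit, had 152, 168 and 180 counts in LM2 and Grik3, a kainate receptor subunit, 157, 160 and 178, with no count of either in LM1. These 2 genes of excitable cells were also low in Myc310, at 0.620 and 0.0131 CPM. LM2 thus differed here from both its sister and its parent. Aspa (aspartoacylase), with 3, 2 and 3 counts in LM1 and 124, 132 and 133 in LM2, completed the members read in every LM2 library among the 6 with the highest level. The other 2 of those 6 were an Nnt entry at 0, 0 and 520 counts and the pseudogene Pgk1-rs7 at 576, 2 and 0 counts in the LM2 libraries. Each therefore rests on 1 library, and both share sequence with another entry. Foxf1, a lung and gut mesenchyme factor at 125, 112 and 103 counts in LM2, and its divergent neighbour Fendrr, a noncoding RNA at 52, 59 and 57, were at the floor together in LM1.

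At the floor in LM2, besides Fzd6 and Bmp6, were Kcnf1, a potassium channel subunit with 170, 215 and 236 counts in LM1 and 1, 0 and 0 in LM2 (at least 76.2-fold lower). Angpt1, the ligand of the endothelial receptor TIE2, had 150, 191 and 166 against 3, 1 and 2 (at least 62.3-fold lower). Pdk4, a kinase that inhibits pyruvate dehydrogenase, had 94, 106 and 119 counts in LM1 and none in LM2 (at least 39.2-fold lower). Myh7b, a myosin, had 52, 71 and 56 against 3, 0 and 1. For Pdk4 and Bmp6 the Myc310 mean was under 0.5 CPM, far below LM1 but above LM2, and for Fzd6, Kcnf1 and Angpt1 it was also between the lines. Promoters of the genes that moved past 2-fold held fewer CG dinucleotides than those of all tested genes, counted in the 300 bases around the RefSeq start. The median was 21 over the 9278 of 11774 protein-coding genes tested that had a promoter in the table. It was 14 over 637 of the 902 that were higher past 2-fold and 18 over 147 of the 200 that were lower. Most of these genes were also under 1 CPM in 1 of the lines, and the part of level in this difference was not tested.

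Genes of sterol synthesis rose as a group in LM2. The pathway makes cholesterol from acetyl-CoA through mevalonate, farnesyl diphosphate and squalene. Its genes are switched on together by the transcription factor SREBP2 when sterol in the endoplasmic reticulum falls. Of 22 members tested, 22 were higher in LM2 and 0 lower, against 27.0% and 24.1% of all autosomal genes. The median log2 fold change of the list was 0.58. Among the members reported here the largest log2 fold changes were 1.17 for Fdps, 0.97 for Msmo1, 0.96 for Fdft1 and 0.85 for Mvd. Fdps, which makes farnesyl diphosphate, was at 43.5, 51.3 and 41.3 CPM in LM1 against 98.1, 99.9 and 100.2 CPM in LM2. Fdps was higher in LM2 (log2 fold change 1.17, standard error 0.070, adjusted p = 4.83e-16). Sqle, which oxidises squalene, was at 67.1, 74.4 and 71.1 CPM in LM1 against 119, 118 and 118 CPM in LM2. Sqle was higher in LM2 (log2 fold change 0.77, standard error 0.040, adjusted p = 8.01e-18). No LM1 culture reached the lowest LM2 culture for either enzyme. At the early steps Hmgcs1 was at 52.8 ± 1.43 CPM in LM1 and 82.8 ± 1.61 CPM in LM2, Mvk at 9.65 ± 0.348 CPM in LM1 and 14.1 ± 0.818 CPM in LM2 and Mvd at 6.23 ± 0.188 CPM in LM1 and 10.9 ± 0.950 CPM in LM2. In the later steps the squalene-forming enzyme Fdft1 was at 17.4 ± 0.420 CPM in LM1 and 33.0 ± 3.04 CPM in LM2, Lss at 28.6 ± 1.44 CPM in LM1 and 44.5 ± 2.93 CPM in LM2, and Cyp51 at 40.8 ± 2.31 CPM in LM1 and 59.7 ± 3.31 CPM in LM2. Early and late steps were thus both higher, and Hsd17b7 changed least (log2 fold change 0.23).

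Among the regulators, Insig1, which retains SREBP in the endoplasmic reticulum, had a log2 fold change of 0.39. Srebf2, which encodes SREBP2 and lies on chromosome 15, was at 149 ± 4.73 CPM in LM1 and 196 ± 5.11 CPM in LM2 (log2 fold change 0.43, adjusted p = 2.21e-13). Srebf1, the fatty acid counterpart, was at 160.4 ± 1.61 CPM in LM1 and 162 ± 4.47 CPM in LM2 and did not pass the test (adjusted p = 0.16). The Myc310 mean lay between those of the 2 lines for 15 of the 22 sterol genes. The list's median was 0.57 for LM2 minus Myc310 and -0.14 for LM1 minus Myc310. Of the fatty acid synthesis genes 4 of 13 tested members were higher in LM2 and 4 were lower (30.8% and 30.8%, against 27.0% and 24.1% of all autosomal genes), with a median of 0.046. Their largest log2 fold changes were 0.96 for Acss2, 0.66 for Scd1, 0.61 for Scd2 and -0.54 for Fads2. Acss2 makes acetyl-CoA from acetate, Scd1 and Scd2 introduce the first double bond into fatty acids, and Fads2 is a polyunsaturate desaturase. The central enzyme Fasn was at 1077 ± 35.0 CPM in LM1 and 944 ± 19.9 CPM in LM2 (log2 fold change -0.15).

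**Figure D2:**
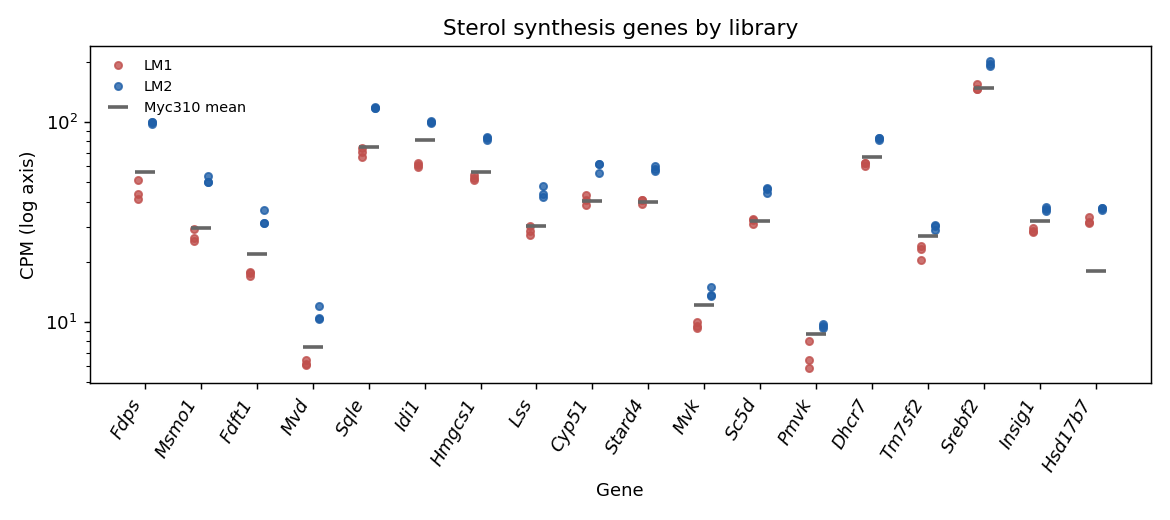
Level in CPM (log axis) of 18 of the 22 sterol synthesis genes in each LM1 and LM2 culture, with a grey dash for the Myc310 mean. All of those plotted are called higher in LM2, with log2 fold changes from 0.23 for Hsd17b7 to 1.17 for Fdps.

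The promoter of Hmgcs1 is shown because it was the only one of 14 sterol members in the RefSeq promoter table with the sterol regulatory element letters TCACNCCAC, searched on both strands, where N is any base. The letters occurred in 1.22% of the 27025 promoters of the table. The sequence runs 5′ to 3′ on the gene's strand from 250 bases before to 50 after the RefSeq start (chr13:119690101-119690400 on the plus strand, build GRCm38.p6), with the matched letters in capitals. A match of letters is a description and not a binding site.
Hmgcs1: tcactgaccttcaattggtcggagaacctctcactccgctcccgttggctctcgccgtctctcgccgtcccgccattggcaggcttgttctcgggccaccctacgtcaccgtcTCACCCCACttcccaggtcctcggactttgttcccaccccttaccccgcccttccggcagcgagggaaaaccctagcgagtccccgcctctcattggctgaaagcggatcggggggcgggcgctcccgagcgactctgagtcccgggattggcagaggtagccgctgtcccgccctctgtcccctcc

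Genes of antigen presentation by MHC class I were higher in LM2. In this pathway the immunoproteasome cuts cytosolic proteins, the TAP transporter carries the peptides into the endoplasmic reticulum, and class I heavy chains load them with beta-2-microglobulin for display at the cell surface. The list had 13 of 18 tested members higher in LM2 and 0 lower (72.2% and 0%, against 27.0% and 24.1% of all autosomal genes), with a median log2 fold change of 0.64. Psmb8, an immunoproteasome subunit, was at 2.22, 1.67 and 2.39 CPM in LM1 against 19.8, 19.7 and 18.2 CPM in LM2. Psmb8 was higher in LM2 (log2 fold change 3.24, standard error 0.15, adjusted p = 2.27e-19). Tap2, a subunit of the transporter, was at 6.29, 6.59 and 5.72 CPM in LM1 against 23.1, 22.1 and 19.9 CPM in LM2. Tap2 was higher in LM2 (log2 fold change 1.84, standard error 0.093, adjusted p = 5.05e-18). Both had non-overlapping cultures, and their Myc310 levels of 0.247 ± 0.190 CPM and 6.74 ± 0.499 CPM were nearer to LM1. Of the other subunits, Psmb9 was at 0.590 ± 0.0279 CPM in LM1 and 3.43 ± 0.471 CPM in LM2 and Tap1 at 4.92 ± 0.498 CPM in LM1 and 9.22 ± 1.32 CPM in LM2. Psmb10 (log2 fold change 0.11, adjusted p = 0.12) did not pass the test. The class I heavy chain H2-K1 was at 87.2, 87.7 and 83.6 CPM in LM1 against 148, 147 and 149 CPM in LM2. H2-K1 was higher in LM2 (log2 fold change 0.81, standard error 0.031, adjusted p = 1.32e-21). H2-D1 was at 262 ± 5.43 CPM in LM1 and 372 ± 2.80 CPM in LM2 and B2m at 129 ± 2.16 CPM in LM1 and 151 ± 3.16 CPM in LM2. Class I genes are near-identical in places, so how reads were divided between H2-K1, H2-D1 and the H2-Q genes is uncertain. The class I transactivator Nlrc5 was at 0.156 ± 0.116 CPM in LM1 and 1.54 ± 0.365 CPM in LM2 (log2 fold change 3.27). The peptidase Erap1, at 61.7 ± 1.56 CPM in LM1 and 61.2 ± 2.91 CPM in LM2, did not pass the test (adjusted p = 0.67).

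The interferon-stimulated genes, which encode antiviral proteins and are induced by interferon signalling, had 26 of 41 tested members higher in LM2 and 2 lower (63.4% and 4.88%, against 27.0% and 24.1% of all autosomal genes), with a median log2 fold change of 0.98 (0.58 with members at the floor of 3 counts set to their bound). Most were at low levels: 18 of the 41 reached 5 CPM in either line, and of these 11 were higher and 2 lower. The largest log2 fold changes were Ifi44 (at the floor in LM1 and 0.115 ± 0.0655 CPM in LM2), 2.79 for Xaf1, Oasl2 (at the floor in LM1 and 0.647 ± 0.202 CPM in LM2) and 2.40 for Oas1a, all at a mean under 3 CPM. Oas3, an oligoadenylate synthetase, was at 13.5, 15.7 and 14.9 CPM in LM1 against 33.1, 36.8 and 36.4 CPM in LM2. Oas3 was higher in LM2 (log2 fold change 1.30, standard error 0.063, adjusted p = 1.69e-18). Ifi27 was at 15.8, 15 and 14.2 CPM in LM1 against 33.6, 37.5 and 34.8 CPM in LM2. Ifi27 was higher in LM2 (log2 fold change 1.28, standard error 0.076, adjusted p = 3.73e-16). The LM2 cultures were above the LM1 cultures for both, with Myc310 at 21.5 ± 0.863 CPM and 16.8 ± 1.43 CPM. Among the sensors Ddx58 (RIG-I) was at 14.6 ± 1.55 CPM in LM1 and 22.1 ± 0.663 CPM in LM2 and Ifih1 (MDA5) at 0.891 ± 0.0421 CPM in LM1 and 2.24 ± 0.614 CPM in LM2. Of the transcription factors Stat2 was at 4.13 ± 0.282 CPM in LM1 and 8.50 ± 0.333 CPM in LM2, Irf9 at 5.66 ± 0.394 CPM in LM1 and 7.60 ± 0.796 CPM in LM2 and Irf7 at 0.254 ± 0.0184 CPM in LM1 and 1.01 ± 0.222 CPM in LM2. The response was uneven. Bst2, at 38.5 ± 1.60 CPM in LM1 and 37.4 ± 2.99 CPM in LM2, and Trim25, at 97.0 ± 2.05 CPM in LM1 and 91.5 ± 0.251 CPM in LM2, did not pass the test (adjusted p = 1.00 and 0.30). Samd9l, an antiviral factor on chromosome 6, was at 24.8, 24.1 and 23 CPM in LM1 against 10.6, 10.2 and 9.92 CPM in LM2. Samd9l was lower in LM2 (log2 fold change -1.19, standard error 0.090, adjusted p = 2.26e-13), without overlap between the cultures. The other member called lower was Eif2ak2, the RNA-activated kinase PKR, at 36.8 ± 0.921 CPM in LM1 and 31.7 ± 1.66 CPM in LM2. The call of Ifi44 was lost without LM1 replicate 1 (adjusted p = 0.066), LM1 replicate 2 (0.073), LM1 replicate 3 (0.071), LM2 replicate 1 (0.084) or LM2 replicate 3 (0.056).

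Promoters of 3 of these genes are shown because they hold the core of the interferon-stimulated response element, a pair of GAAA half-sites separated by 2 bases of any kind. It was searched on both strands and is given in capitals (on the opposite strand for Psme1). Such letters were in 18 of 32 interferon-stimulated members with a promoter in the table (56.2%) and in 5 of 16 class I members (31.2%). The share was 3.49% over all promoters. Bst2 and Eif2ak2, which were not higher in LM2, held them too. The windows are chr5:120777610-120777909 on the minus strand (Oas3), chr2:62646206-62646505 on the minus strand (Ifih1) and chr14:55578244-55578543 on the plus strand (Psme1, a proteasome activator subunit at 66.6 ± 0.671 CPM in LM1 and 95.8 ± 1.53 CPM in LM2), in GRCm38.p6 from RefSeq, 5′ to 3′ on the gene's strand.
Oas3: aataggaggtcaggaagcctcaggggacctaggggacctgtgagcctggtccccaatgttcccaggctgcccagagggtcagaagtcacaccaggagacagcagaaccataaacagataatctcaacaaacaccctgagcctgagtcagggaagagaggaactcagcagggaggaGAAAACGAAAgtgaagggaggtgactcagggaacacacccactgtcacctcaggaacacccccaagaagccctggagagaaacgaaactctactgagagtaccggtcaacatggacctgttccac
Ifih1: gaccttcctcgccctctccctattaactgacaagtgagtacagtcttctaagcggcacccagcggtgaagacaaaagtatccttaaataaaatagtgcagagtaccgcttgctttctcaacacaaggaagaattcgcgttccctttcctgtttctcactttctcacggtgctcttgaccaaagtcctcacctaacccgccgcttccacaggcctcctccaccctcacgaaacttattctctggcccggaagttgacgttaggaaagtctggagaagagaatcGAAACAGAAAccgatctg
Psme1: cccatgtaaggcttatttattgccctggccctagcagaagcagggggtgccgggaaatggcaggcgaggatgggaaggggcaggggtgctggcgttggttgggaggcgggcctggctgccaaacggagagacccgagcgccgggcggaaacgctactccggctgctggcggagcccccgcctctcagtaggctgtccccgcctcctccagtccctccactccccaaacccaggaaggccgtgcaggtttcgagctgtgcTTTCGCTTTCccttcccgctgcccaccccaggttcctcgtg

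The simple epithelial keratins Krt7, Krt8, Krt18 and Krt19 were higher in LM2. Krt19 was at 5.57, 6.55 and 6.05 CPM in LM1 against 69.9, 73.0 and 74.3 CPM in LM2. Krt19 was higher in LM2 (log2 fold change 3.61, standard error 0.078, adjusted p = 2.15e-28). Krt7, on chromosome 15, was at 9.02, 10.1 and 9.38 CPM in LM1 against 72.7, 67.4 and 71.1 CPM in LM2. Krt7 was higher in LM2 (log2 fold change 2.92, standard error 0.062, adjusted p = 1.38e-28). Krt18, also on chromosome 15, was at 226, 235 and 229 CPM in LM1 against 451, 482 and 459 CPM in LM2. Krt18 was higher in LM2 (log2 fold change 1.05, standard error 0.033, adjusted p = 6.28e-24). For all 3 the lowest LM2 culture was above the highest LM1 culture. Krt8, the partner of Krt18 and also on chromosome 15, was at 876 ± 10.7 CPM in LM1 and 1454 ± 23.4 CPM in LM2 (log2 fold change 0.77, standard error 0.022, adjusted p = 7.54e-25). Krt19 lies on chromosome 11, where the median log2 fold change of all tested genes was 0. The epithelial junction list, which holds these keratins with tight junction, desmosome and epithelial splicing genes, had 10 of 18 tested members higher in LM2 and 1 lower (55.6% and 5.56%, against 27.0% and 24.1% of all autosomal genes). Its median log2 fold change was 0.80 (0.43 with members at the floor of 3 counts set to their bound), and 0.59 without members on chromosomes 6 and 15. The largest log2 fold changes were 3.61 for Krt19, Spint1 (at the floor in LM1 and 0.186 ± 0.0644 CPM in LM2), 2.92 for Krt7 and 2.83 for Grhl2. Besides the keratins, the desmosomal gene Dsp was at 32.3 ± 1.80 CPM in LM1 and 56.4 ± 2.00 CPM in LM2 and the junctional adhesion molecule F11r at 4.49 ± 0.473 CPM in LM1 and 10.8 ± 0.525 CPM in LM2. Both were found with a higher mean in Myc310, at 117 ± 4.42 CPM and 24.0 ± 1.57 CPM. Plakoglobin (Jup) was at 115 ± 3.24 CPM in LM1 and 115 ± 3.85 CPM in LM2 and did not pass the test (adjusted p = 0.38). Tjp1 (ZO-1) was slightly lower (log2 fold change -0.15). As Epcam and Cdh1 were at or near 0 in both lines, the higher keratins were not accompanied by these adhesion genes.

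The mesenchymal list had 4 of 23 tested members higher in LM2 and 10 lower (17.4% and 43.5%, against 27.0% and 24.1% of all autosomal genes), with a median of -0.052. The largest log2 fold changes were Col5a2 (0.288 ± 0.0546 CPM in LM1 and at the floor in LM2), -4.21 for Fn1, Fbn1 (0.581 ± 0.184 CPM in LM1 and at the floor in LM2) and Acta2 (0.262 ± 0.176 CPM in LM1 and at the floor in LM2), of which Fn1 (fibronectin) went from 6.08 ± 0.968 CPM in LM1 to 0.316 ± 0.0911 CPM in LM2 and the others were under 1 CPM in both lines. The abundant members changed by small amounts, with log2 fold changes of -0.15 for Vim, -0.14 for Axl and -0.44 for Cald1. The factors Zeb1, Twist1 and Snai1 did not pass the test (adjusted p = 0.52, 0.59 and 0.90). Col6a1, a collagen VI chain, went the other way at 10.7 ± 1.00 CPM in LM1 and 32.3 ± 2.04 CPM in LM2. The mammary luminal list had 7 of 10 tested members higher in LM2 and 1 lower (70% and 10%), with 3.61 for Krt19, Esr1 (at the floor in LM1 and 0.374 ± 0.167 CPM in LM2), 1.67 for Areg and 1.19 for Lcn2 as the largest log2 fold changes. The luminal transcription factor Gata3 was the member that was lower, at 78.6 ± 3.56 CPM in LM1 and 54.6 ± 0.554 CPM in LM2. Of the basal list, 2 of 11 tested members were higher in LM2 and 4 were lower (18.2% and 36.4%), with log2 fold changes of Acta2 (0.262 ± 0.176 CPM in LM1 and at the floor in LM2), Tagln (0.522 ± 0.361 CPM in LM1 and at the floor in LM2), 1.39 for Nrg1 and 0.64 for Procr. Of the 11 basal members tested, 7 were at the floor in LM1 or LM2. Only 3 reached 5 CPM in either line, 1 of them higher and 2 lower. The basal median of 0.64 became 0 with members at the floor set to their bound. Krt5 and Trp63 did not pass the filter in these libraries. Mammary luminal genes called lower numbered 2 without LM2 replicate 3. The call of Acta2 was lost without LM1 replicate 1 (adjusted p = 0.054).

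Markers of other lung cells were examined, since both lines were grown from digested whole lung. Of the fibroblast list 6 of 12 members were tested, 2 were higher in LM2 and 1 lower (0 lower without LM2 replicate 1), against 27.0% and 24.1% of all autosomal genes. The summed level of the list was 15.1 to 17.7 CPM in LM1 and 59.1 to 63.1 CPM in LM2. The rise came from the receptor Pdgfra, at 2.26 ± 0.765 CPM in LM1 and 20.5 ± 1.85 CPM in LM2, and the collagen Col3a1, at 12.9 ± 0.876 CPM in LM1 and 40.4 ± 0.582 CPM in LM2. Col1a1 and Col1a2 stayed under 0.5 CPM in the mean of either line and Dcn, Lum, Thy1, Fap, Postn and Dpt did not pass the filter. Leukocyte markers gave 3 higher of 4 tested, with log2 fold changes of 2.82 for S100a8, 0.88 for Cd68 and 0.59 for Cd14, with Ptprc (CD45) under the filter. Endothelial markers gave 2 higher of 4 tested, with log2 fold changes of 0.54 for Egfl7 and 0.24 for Flt1. Pecam1 was under the filter and Cdh5 at 0.0516 ± 0.0893 CPM in LM1 and 0.143 ± 0.179 CPM in LM2. Of the alveolar and airway markers Hopx was higher (0.0973 ± 0.0542 CPM in LM1 and 1.52 ± 0.278 CPM in LM2) of 3 tested, with Sftpc under the filter, and no red cell marker was tested. In such bulk libraries fewer cells of a type and less RNA per cell cannot be told apart. The part of other cells in the differences was not tested beyond these levels.

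Several ligands and receptors that feed the ERK cascade were higher in LM2. Ligands of the EGF receptor and receptor tyrosine kinases activate RAS and RAF. ERK in turn induces feedback inhibitors of the DUSP, SPRY and SPRED families and immediate early transcription factors. The ligand and receptor list had 12 of 22 tested members higher in LM2 and 0 lower (54.5% and 0%, against 27.0% and 24.1% of all autosomal genes), with a median of 0.24. Among ligands Areg (amphiregulin) was at 8.46, 8.76 and 7.74 CPM in LM1 against 25.5, 25.9 and 26.3 CPM in LM2. Areg was higher in LM2 (log2 fold change 1.67, standard error 0.075, adjusted p = 1.72e-19). Tgfa, on chromosome 6, was at 36.4, 34.5 and 36.2 CPM in LM1 against 71.4, 69.6 and 72.4 CPM in LM2. Tgfa was higher in LM2 (log2 fold change 1.03, standard error 0.043, adjusted p = 2.23e-20). The LM2 cultures were above the LM1 cultures for both ligands, without overlap. Among receptors Pdgfra was at 2.47, 2.89 and 1.41 CPM in LM1 against 22.2, 18.5 and 20.7 CPM in LM2. Pdgfra was higher in LM2 (log2 fold change 3.21, standard error 0.14, adjusted p = 5.95e-20). Egfr, low in both lines, was at 0.258, 0.135 and 0.188 CPM in LM1 against 3.21, 2.88 and 3.52 CPM in LM2. Egfr was higher in LM2 (log2 fold change 4.07, standard error 0.26, adjusted p = 3.25e-15). Erbb2 (51.0 ± 1.82 CPM in LM1 and 51.1 ± 1.22 CPM in LM2) did not pass the test (adjusted p = 0.48) and Met was at 247 ± 4.25 CPM in LM1 and 286 ± 4.92 CPM in LM2 (log2 fold change 0.25).

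The feedback list had 13 of 16 tested members higher in LM2 and 2 lower (81.2% and 12.5%, against 27.0% and 24.1% of all autosomal genes), with a median of 0.25. The largest log2 fold changes were -2.55 for Spry1, 0.97 for Spred3, 0.63 for Spry4 and 0.50 for Dusp5. Dusp6, the ERK phosphatase, was at 113 ± 6.31 CPM in LM1 and 147 ± 3.62 CPM in LM2 and Spry4 at 16.2 ± 1.75 CPM in LM1 and 24.4 ± 1.66 CPM in LM2. Spry2 was lower at 36.8 ± 1.18 CPM in LM1 and 30.1 ± 1.06 CPM in LM2, so the feedback genes did not all move one way. Of the immediate early factors 13 of 18 tested members were higher in LM2 and 1 was lower (72.2% and 5.56%), with 2.19 for Egr2, 1.49 for Egr1, 1.07 for Atf3 and 0.93 for Klf2 as the largest log2 fold changes. Ier3, among the more abundant ones, was at 34.4 ± 0.602 CPM in LM1 and 63.7 ± 2.59 CPM in LM2. Braf, the RAF kinase, lay in a region of chromosome 6 where most genes were lower in LM2, and was at 82.2, 90.3 and 84.9 CPM in LM1 against 49.8, 47.8 and 54.4 CPM in LM2. Braf was lower in LM2 (log2 fold change -0.72, standard error 0.051, adjusted p = 4.43e-14). Its LM1 cultures were above the LM2 cultures, with Myc310 at 49.5 ± 0.939 CPM. The call of Atf3 was lost without LM1 replicate 1 (adjusted p = 0.071), LM1 replicate 3 (0.12), LM2 replicate 1 (0.059) or LM2 replicate 2 (0.074).

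Targets of TGF-beta, BMP and YAP signalling were mostly lower in LM2, with 4 of 22 tested members higher in LM2 and 12 lower (18.2% and 54.5%, against 27.0% and 24.1% of all autosomal genes) and a median of -0.20. Largest in log2 fold change were 3.66 for Bmp7, Bambi (0.165 ± 0.125 CPM in LM1 and at the floor in LM2), -1.10 for Tgfb2 and -0.90 for Smad6. Bmp7, a BMP ligand, was thus higher, from 2.53 ± 0.167 CPM to 31.2 ± 2.15 CPM, while the ligand Bmp6 was at the floor in LM2. The inhibitory SMADs, which BMP and TGF-beta signals induce, were both lower. Smad7 was at 27.5, 27.2 and 27.9 CPM in LM1 against 15.2, 12.3 and 16.1 CPM in LM2. Smad7 was lower in LM2 (log2 fold change -0.88, standard error 0.10, adjusted p = 1.35e-09). Smad6 was at 7.84, 6.28 and 7.55 CPM in LM1 against 3.98, 3.70 and 3.61 CPM in LM2. Smad6 was lower in LM2 (log2 fold change -0.90, standard error 0.17, adjusted p = 2.26e-05). Of the BMP targets of the Id family Id2 was at 18.9 ± 0.771 CPM in LM1 and 10.2 ± 0.627 CPM in LM2, Id3 at 108 ± 3.48 CPM in LM1 and 82.6 ± 3.83 CPM in LM2 and Id1 at 71.6 ± 1.87 CPM in LM1 and 59.7 ± 2.94 CPM in LM2. The YAP targets Ankrd1 and Amotl2 were at 72.1 ± 2.52 CPM in LM1 and 41.0 ± 2.30 CPM in LM2 and at 80.3 ± 6.03 CPM in LM1 and 47.2 ± 2.13 CPM in LM2. Ccn1 and Ccn2, further YAP targets that the list did not hold and that were added after their values were seen, had log2 fold changes of -1.18 and -0.77. Among receptors Tgfbr2 was slightly higher (log2 fold change 0.32). The ligand Tgfb1 was also higher (66.1 ± 1.78 CPM in LM1 and 95.7 ± 1.23 CPM in LM2), against the direction of most members. The call of Bambi was lost without LM1 replicate 1 (adjusted p = 0.15), LM2 replicate 1 (0.075) or LM2 replicate 2 (0.075).

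Of the integrin subunits, which bind cells to matrix, 8 of 16 tested members were higher in LM2 and 4 were lower (50% and 25%, against 27.0% and 24.1% of all autosomal genes). Itgb3 was at 8.46, 7.86 and 8.21 CPM in LM1 against 37.7, 37.9 and 37.3 CPM in LM2. Itgb3 was higher in LM2 (log2 fold change 2.24, standard error 0.075, adjusted p = 4.59e-23). Itgb5, on chromosome 16, was at 97.2, 90.8 and 92.6 CPM in LM1 against 25.6, 25.2 and 23 CPM in LM2. Itgb5 was lower in LM2 (log2 fold change -1.89, standard error 0.051, adjusted p = 1.17e-25). These beta chains, which both pair with the alpha-v chain Itgav (299 ± 6.58 CPM in LM1 and 281 ± 0.978 CPM in LM2, adjusted p = 0.071), thus went in opposite directions. Itgb2, the beta chain of leukocyte integrins, was at 108 ± 4.68 CPM in LM1 and 247 ± 6.00 CPM in LM2, Itga6 at 173 ± 5.71 CPM in LM1 and 289 ± 4.72 CPM in LM2 and Itga2 at 0.835 ± 0.219 CPM in LM1 and 0.0145 ± 0.0251 CPM in LM2. Matrix proteases and inhibitors had 13 of 25 tested members higher in LM2 and 1 lower (52% and 4%). The plasminogen activator Plat was at 14.7 ± 1.44 CPM in LM1 and 47.2 ± 0.934 CPM in LM2, the stromelysin Mmp3 at 16.5 ± 1.26 CPM in LM1 and 49.4 ± 3.02 CPM in LM2 and Plau (urokinase) at 66.2 ± 2.43 CPM in LM1 and 115 ± 1.35 CPM in LM2. The membrane protease Mmp14 at 142 ± 3.25 CPM in LM1 and 139 ± 1.81 CPM in LM2 did not pass the test (adjusted p = 0.87). The basement membrane and matrix list had 10 of 21 tested members higher in LM2 and 3 lower (47.6% and 14.3%), led in log2 fold change by 3.48 for Lamb3, -2.96 for Vcan, 2.23 for Fbln1 and -2.17 for Col12a1. Col18a1 was at 253 ± 4.28 CPM in LM1 and 464 ± 4.25 CPM in LM2. Nes, an intermediate filament gene named after its values were seen, was at 12.6, 13.3 and 14.3 CPM in LM1 against 107, 105 and 103 CPM in LM2. Nes was higher in LM2 (log2 fold change 3.01, standard error 0.055, adjusted p = 1.32e-30). Matrix proteases and inhibitors called lower numbered 0 without LM1 replicate 2, LM1 replicate 3 or LM2 replicate 2.

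Of the Wnt ligands and targets 4 of 16 tested members were higher in LM2 and 5 were lower (25% and 31.2%, against 27.0% and 24.1% of all autosomal genes). The ligands Wnt6, Wnt10a and Wnt7b were at 2.74 ± 0.412 CPM in LM1 and 18.1 ± 1.13 CPM in LM2, at 4.70 ± 0.481 CPM in LM1 and 24.4 ± 0.435 CPM in LM2 and at 18.6 ± 1.26 CPM in LM1 and 72.1 ± 5.45 CPM in LM2 (log2 fold changes 2.76, 2.41 and 1.99). In Myc310 they were at 0.215 ± 0.0853, 0.0541 ± 0.0598 and 70.0 ± 2.51 CPM. Against these higher ligands, the general Wnt target Axin2 had no count in any library of either line. The feedback genes Notum and Znrf3 were lower in LM2 (log2 fold changes -0.38 and -0.25). The Notch list had 9 of 15 tested members higher in LM2 and 2 lower (60% and 13.3%), led in log2 fold change by Dll1 (at the floor in LM1 and 0.546 ± 0.101 CPM in LM2), Notch3 (at the floor in LM1 and 0.201 ± 0.131 CPM in LM2), 1.34 for Notch1 and 0.67 for Jag1. Notch1 was at 19.9 ± 2.74 CPM in LM1 and 49.3 ± 2.85 CPM in LM2 and Notch2 at 126 ± 8.20 CPM in LM1 and 101 ± 3.03 CPM in LM2. Semaphorins, plexins and neuropilins had 14 of 25 tested members higher in LM2 and 4 lower (56% and 16%), led in log2 fold change by Sema7a (at the floor in LM1 and 0.173 ± 0.0875 CPM in LM2), Plxnb1 (at the floor in LM1 and 0.288 ± 0.0923 CPM in LM2), 1.55 for Sema3b and 1.47 for Sema4a. Eph receptors and ephrins had 5 of 13 tested members higher in LM2 and 3 lower (38.5% and 23.1%), led in log2 fold change by Efna4 (0.346 ± 0.132 CPM in LM1 and at the floor in LM2), 1.16 for Efna1, 0.96 for Ephb6 and -0.53 for Ephb2. Chemokines and cytokines had 7 of 20 tested members higher in LM2 and 2 lower (35% and 10%), led in log2 fold change by 1.72 for Cxcl1, 1.49 for Cd274, 1.18 for Ccl5 and 0.69 for Cxcl5. Of these Cd274 encodes PD-L1 and was under 3 CPM in both lines, and the neutrophil chemokine Cxcl1 was at 5.66 ± 1.32 CPM in LM1 and 18.1 ± 1.27 CPM in LM2. Wnt ligands and targets called lower numbered 2 without LM1 replicate 1 and 3 without LM2 replicate 3. Notch pathway genes called lower numbered 1 without LM1 replicate 2, LM1 replicate 3, LM2 replicate 1 or LM2 replicate 3. Chemokines and cytokines called higher numbered 4 without LM2 replicate 3. The call of Ccl5 was lost without LM1 replicate 1 (adjusted p = 0.10), LM1 replicate 2 (0.10), LM2 replicate 2 (0.09) or LM2 replicate 3 (0.11). The call of Ephb6 was lost without LM1 replicate 1 (adjusted p = 0.084) or LM2 replicate 2 (0.07). The call of Notch3 was lost without LM1 replicate 1 (adjusted p = 0.14), LM1 replicate 3 (0.087), LM2 replicate 2 (0.24) or LM2 replicate 3 (0.052). The call of Notum was lost without LM1 replicate 1 (adjusted p = 0.057) or LM2 replicate 3 (0.061). The call of Plxnb1 was lost without LM1 replicate 2 (adjusted p = 0.053) or LM2 replicate 3 (0.063). The call of Sema7a was lost without LM1 replicate 1 (adjusted p = 0.11), LM1 replicate 2 (0.12), LM2 replicate 1 (0.064) or LM2 replicate 3 (0.13).

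The cystine and glutathione genes on which the study turned differed in both directions, mostly by less than 2-fold. Cells import cystine through the transporter xCT (Slc7a11 with Slc3a2) or make cysteine by transsulfuration (Cbs and Cth). They join it with glutamate and glycine to form glutathione (Gclc with Gclm, then Gss), which Gsr keeps reduced and peroxidases of the Gpx family use. The list had 8 of 26 tested members higher in LM2 and 9 lower (30.8% and 34.6%, against 27.0% and 24.1% of all autosomal genes), with a median of -0.037. The members past 2-fold were Cbs and Ggt7, both at low levels. Slc7a11 was at 10.7, 9.98 and 10.7 CPM in LM1 against 10.5, 9.46 and 9.35 CPM in LM2. Slc7a11 did not pass the test (log2 fold change -0.057, standard error 0.091, adjusted p = 0.64), and its cultures overlapped between the lines. Cth was at 24.7, 25.2 and 24.0 CPM in LM1 against 17.4, 17.0 and 17.5 CPM in LM2 (log2 fold change -0.47, standard error 0.075, adjusted p = 2.16e-06), with the LM1 cultures above the LM2 cultures. Cbs was near the limit of detection, at 0.0516, 0.135 and 0.235 CPM in LM1 against 0.214, 0.559 and 0.609 CPM in LM2 (log2 fold change 1.69, standard error 0.54, adjusted p = 0.0094), from 1, 3 and 5 counts in LM1 and 5, 13 and 14 in LM2. The lowest LM2 culture lay below the highest LM1 culture, and the call was lost without LM1 replicate 1 (adjusted p = 0.057) or without LM2 replicate 3 (adjusted p = 0.053). Ggt7, a member of the gamma-glutamyltransferase family, was at 0.412, 0.271 and 0.422 CPM in LM1 against 1.07, 0.989 and 0.652 CPM in LM2 (log2 fold change 1.33, standard error 0.34, adjusted p = 0.0015), with the LM2 cultures above the LM1 cultures.

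Of the glutathione synthesis enzymes Gclm was at 119, 113 and 114 CPM in LM1 against 85.6, 89.8 and 90.5 CPM in LM2. Gclm was lower in LM2 (log2 fold change -0.34, standard error 0.036, adjusted p = 5.96e-10). Gclc was at 86.8 ± 1.72 CPM in LM1 and 77.8 ± 2.44 CPM in LM2 (log2 fold change -0.12). Gss was at 34.5 ± 1.70 CPM in LM1 and 28.6 ± 1.10 CPM in LM2 (log2 fold change -0.23). All 3 were therefore lower in LM2 by modest amounts, and Gclm and Gss each overlap a gene on the other strand. The reductase Gsr was at 171 ± 5.02 CPM in LM1 and 189 ± 2.22 CPM in LM2 (log2 fold change 0.18). Of the peroxidases Gpx1 was at 167 ± 4.36 CPM in LM1 and 133 ± 4.47 CPM in LM2 (log2 fold change -0.29). Gpx4, which reduces lipid peroxides, at 226 ± 9.27 CPM in LM1 and 226 ± 0.749 CPM in LM2, and Gpx3, under 1 CPM in either line, did not pass the test (adjusted p = 0.42 and 0.34). Glutathione S-transferases, which conjugate glutathione to other molecules, were by contrast mostly higher, with 12 of 18 tested members higher in LM2 and 2 lower (66.7% and 11.1%, against 27.0% and 24.1% of all autosomal genes), a median of 0.63 (0.53 with members at the floor of 3 counts set to their bound). Their largest log2 fold changes were Gstm4 (0.291 ± 0.135 CPM in LM1 and at the floor in LM2), 2.76 for Mgst1, 2.21 for Gstm5 and 2.14 for Gstt3. Mgst1, a membrane-bound transferase with peroxidase activity on chromosome 6, was at 3.87, 3.43 and 3.19 CPM in LM1 against 24.9, 23 and 21.4 CPM in LM2. Mgst1 was higher in LM2 (log2 fold change 2.76, standard error 0.11, adjusted p = 1.56e-20). Gstp1 was at 153 ± 4.71 CPM in LM1 and 206 ± 6.82 CPM in LM2. The Mgst1 level was higher again in Myc310, at 40.1 ± 1.40 CPM. NRF2 targets had 14 of 25 tested members higher in LM2 and 5 lower (56% and 20%), with a median of 0.15 (0.13 with members at the floor of 3 counts set to their bound). The largest log2 fold changes among them were Cbr3 (at the floor in LM1 and 0.0868 ± 0.115 CPM in LM2), 2.19 for Aldh3a1, 1.03 for Osgin1 and 0.69 for Gsta4. Glutathione S-transferases called lower numbered 1 without LM1 replicate 2 or LM2 replicate 3. The call of Cbr3 was lost without LM1 replicate 1 (adjusted p = 0.096), LM1 replicate 2 (0.10), LM1 replicate 3 (0.10) or LM2 replicate 3 (0.35). The call of Gsta4 was lost without LM1 replicate 2 (adjusted p = 0.17), LM1 replicate 3 (0.096), LM2 replicate 1 (0.055) or LM2 replicate 2 (0.14).

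Genes of the ATF4 and amino acid response, by which cells short of an amino acid raise transporters, synthetases and stress factors, had 20 of 31 tested members higher in LM2 and 3 lower (64.5% and 9.68%, against 27.0% and 24.1% of all autosomal genes), with a median of 0.21 (0.19 with members at the floor of 3 counts set to their bound). Largest in log2 fold change were Vldlr (at the floor in LM1 and 8.97 ± 1.20 CPM in LM2), 1.07 for Atf3, 0.98 for Trib3 and 0.91 for Chac1. Trib3, a pseudokinase of the response, was at 8.71, 9.35 and 10.6 CPM in LM1 against 19.2, 17.4 and 18.6 CPM in LM2. Trib3 was higher in LM2 (log2 fold change 0.98, standard error 0.093, adjusted p = 5.83e-11). Ddit4 (REDD1, an inhibitor of mTORC1) was at 102, 115 and 95.0 CPM in LM1 against 174, 156 and 154 CPM in LM2. Ddit4 was higher in LM2 (log2 fold change 0.67, standard error 0.064, adjusted p = 7.44e-11). Chac1, which degrades glutathione, was at 1.60, 1.26 and 1.27 CPM in LM1 against 2.40, 2.75 and 2.39 CPM in LM2. Chac1 was higher in LM2 (log2 fold change 0.91, standard error 0.22, adjusted p = 6.86e-04). The LM2 cultures were above the LM1 cultures for these genes in medium that held cystine. Atf4 itself, on chromosome 15, was at 139 ± 3.52 CPM in LM1 and 196 ± 4.65 CPM in LM2 (log2 fold change 0.53). The serine synthesis enzymes Phgdh and Shmt2 did not pass the test (adjusted p = 0.92 and 0.83). Psat1 had a log2 fold change of 0.094 and Asns of 0.18, so that the members differed widely in size. ATF4 and amino acid response genes called lower numbered 1 without LM2 replicate 3.

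Promoters of Chac1 and Trib3 are shown because they hold the C/EBP-ATF response element letters TGATGNAA, searched on both strands. The capitals mark them on the opposite strand in both promoters, so they are printed as the reverse complement. These were in 8 of 27 members with a promoter in the table (29.6%) and in 4.06% of all promoters. The match is again a description only. The windows are chr2:119350992-119351291 on the plus strand (Chac1) and chr2:152344011-152344310 on the minus strand (Trib3), in GRCm38.p6 from RefSeq, 5′ to 3′ on the gene's strand.
Chac1: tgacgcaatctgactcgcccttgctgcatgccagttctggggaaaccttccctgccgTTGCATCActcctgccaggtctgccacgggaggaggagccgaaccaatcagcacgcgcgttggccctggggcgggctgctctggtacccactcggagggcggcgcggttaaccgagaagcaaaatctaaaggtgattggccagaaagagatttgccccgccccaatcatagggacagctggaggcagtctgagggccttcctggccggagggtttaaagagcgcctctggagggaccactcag
Trib3: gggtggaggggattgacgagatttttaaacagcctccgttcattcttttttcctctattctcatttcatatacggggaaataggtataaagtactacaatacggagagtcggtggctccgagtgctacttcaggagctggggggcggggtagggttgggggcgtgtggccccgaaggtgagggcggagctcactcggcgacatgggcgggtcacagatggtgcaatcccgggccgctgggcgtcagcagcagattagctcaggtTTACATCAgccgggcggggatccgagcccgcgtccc

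Genes of DNA replication, mitosis and the cytosolic ribosome differed by small amounts. Of the DNA replication and mitosis genes 6 of 45 tested members were higher in LM2 and 21 were lower (13.3% and 46.7%, against 27.0% and 24.1% of all autosomal genes), with a median of -0.056. Largest in log2 fold change were -0.36 for E2f1, -0.35 for Ccnb2, -0.33 for Chek1 and -0.32 for Pole. Cytosolic ribosomal protein genes had 5 of 74 tested members higher in LM2 and 37 lower (6.76% and 50%), with a median of -0.077, a small difference shared by many members. Expressed genes in general were also slightly lower. Over genes with a mean of at least 10 CPM, LM2 cultures had medians of -0.10 to -0.034 relative to the LM1 mean. These values are for the autosomes without the regional shifts described below and are on the CPM scale, not that of the fit. The medians of both lists lie within that range. Whether these lists fell below other genes of similar level was not tested. In the Myc network and Cdkn2 locus list 5 of 13 tested members were higher in LM2 and 6 were lower (38.5% and 46.2%). Myc, on chromosome 15, was at 1159, 1158 and 1177 CPM in LM1 against 800.0, 823 and 837 CPM in LM2. Myc was lower in LM2 (log2 fold change -0.47, standard error 0.025, adjusted p = 2.91e-17), without overlap, and Myc310 was at 1335 ± 18.4 CPM. Whether transcripts of the transgene were counted with this gene is not given in the sources used here. The MAX partner Mga was at 94.2 ± 2.63 CPM in LM1 and 51.8 ± 0.554 CPM in LM2, and Cdkn2a and Cdkn2b had no count in either line. Of the p53 targets 6 of 20 tested members were higher in LM2 and 9 were lower (30% and 45%), led in log2 fold change by -1.07 for Fas, 1.05 for Perp, 0.70 for Trp53inp1 and 0.69 for Plk3. Ccng1 was at 398 ± 4.99 CPM in LM1 and 257 ± 11.5 CPM in LM2 and the cell cycle inhibitor Cdkn1a (p21) at 103 ± 2.32 CPM in LM1 and 151 ± 4.39 CPM in LM2. The call of Fas was lost without LM1 replicate 1 (adjusted p = 0.093) or LM2 replicate 3 (0.068).

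Glycolysis genes had 13 of 19 tested members higher in LM2 and 2 lower (68.4% and 10.5%, against 27.0% and 24.1% of all autosomal genes). Their median was 0.26, or 0.082 without the 6 members on chromosomes 6 and 15. Those members included Gapdh at 2078 ± 33.6 CPM in LM1 and 2706 ± 52.0 CPM in LM2 and Tpi1 at 951 ± 5.20 CPM in LM1 and 1316 ± 3.97 CPM in LM2. The list was led in log2 fold change by Ldhb (at the floor in LM1 and 0.532 ± 0.104 CPM in LM2), 2.14 for Aldoc, 0.83 for Eno2 and 0.51 for Pfkm. Hypoxia response genes had 8 of 15 tested members higher in LM2 and 1 lower (53.3% and 6.67%), led in log2 fold change by 1.09 for Ndrg1, -0.80 for Car12, 0.69 for Vegfa and 0.54 for P4ha2. ER chaperones and unfolded protein response genes had 14 of 20 tested members higher in LM2 and 1 lower (70% and 5%), led in log2 fold change by 0.76 for Pdia4, 0.66 for Herpud1, 0.61 for Xbp1 and 0.61 for Creld2. The most abundant chaperone genes Hspa5 and Hsp90b1 had log2 fold changes of 0.16 and 0.20. Of 36 autosomal Hox genes only 4 passed the filter on low counts. As 3 of these were at the floor in LM1 and so passed through lines where they are higher, their direction is given as a description: Hoxa5 (at the floor in LM1 and 0.575 ± 0.138 CPM in LM2), Hoxb4 (at the floor in LM1 and 3.88 ± 0.514 CPM in LM2) and Hoxa3 (at the floor in LM1 and 0.344 ± 0.128 CPM in LM2). Imprinted genes had 6 of 10 tested members higher in LM2 and 1 lower (60% and 10%), led in log2 fold change by Snrpn (at the floor in LM1 and 1.78 ± 0.163 CPM in LM2), Phlda2 (at the floor in LM1 and 2.81 ± 0.431 CPM in LM2), Mest (at the floor in LM1 and 0.345 ± 0.197 CPM in LM2) and 0.64 for Kcnq1ot1. Of the 10 imprinted members tested, 5 were at the floor in LM1 or LM2 and so passed the filter through lines where they are higher. The shares of this list are therefore given as a description. Of the 4 that reached 5 CPM in either line, 3 were higher and 1 was lower. Snrpn had no count in LM1, 1.78 ± 0.163 CPM in LM2 and 2.71 ± 0.489 CPM in Myc310. Hypoxia response genes called lower numbered 2 without LM2 replicate 1. ER chaperones and unfolded protein response genes called lower numbered 0 without LM1 replicate 2, LM1 replicate 3, LM2 replicate 1, LM2 replicate 2 or LM2 replicate 3.

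**Figure D3:**
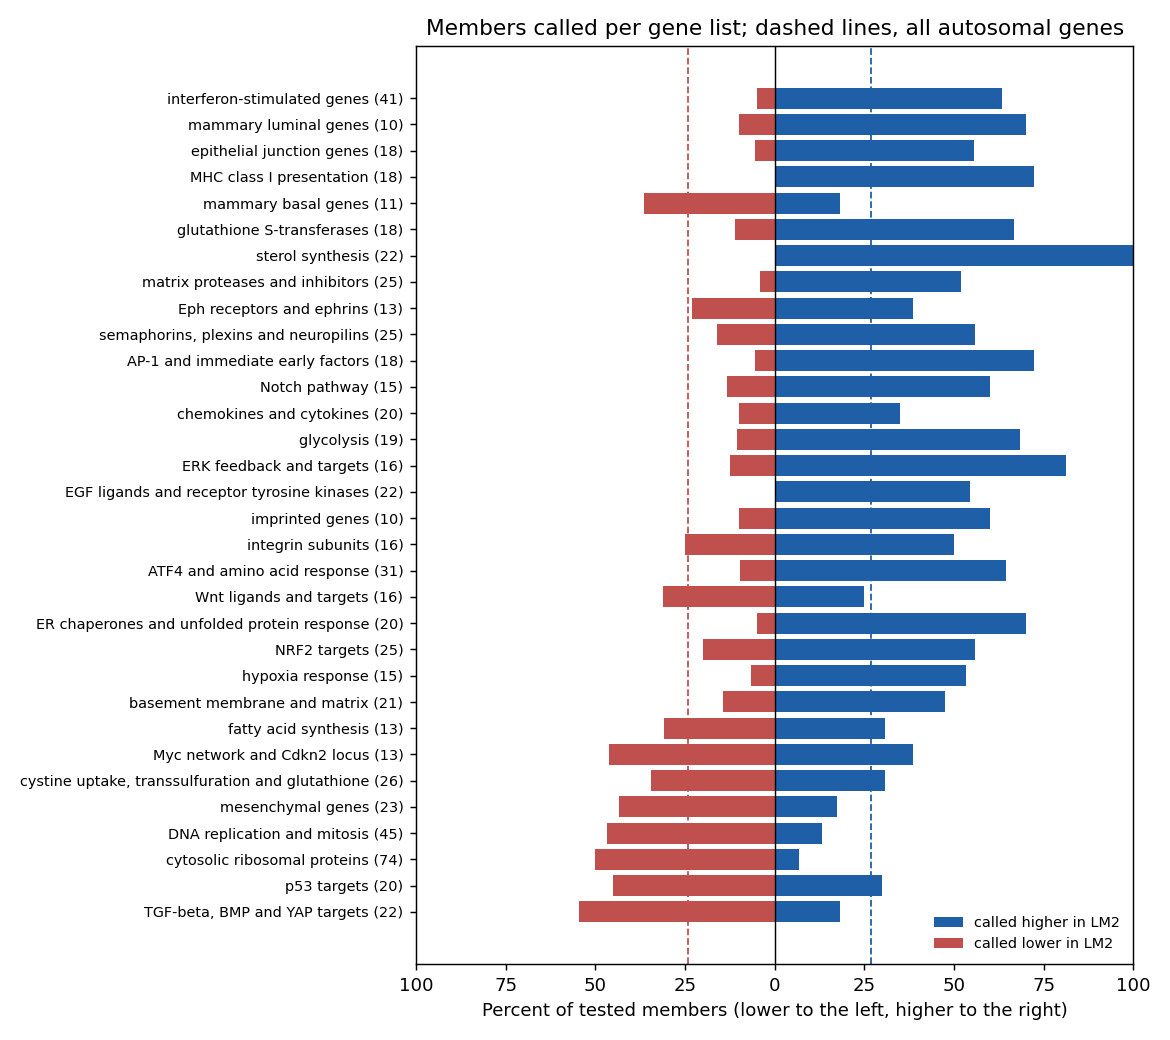
Percent of the tested members of each gene list (number tested in parentheses) that were called higher in LM2, to the right, and lower, to the left, for lists of at least 10 tested members ordered by their median log2 fold change; the dashed lines are the shares over all autosomal genes, 27.0% higher and 24.1% lower. Sterol synthesis reaches the right edge with 22 of 22 members higher and class I presentation has no bar to the left, while TGF-beta, BMP and YAP targets have more members lower (12) than higher (4). The medians used for the order include members at the floor in a line. With such members set to their bound, the medians of the mammary basal list (0.64) and the Wnt list (0.19) become 0.

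Part of the difference between the lines followed chromosomes. Over all tested genes of chromosome 15 the median log2 fold change was 0.33, a median fold of 1.25, with 389 of 554 genes higher and 21 lower. Chromosome 6 had a median of 0.27, with 396 of 690 genes higher and 89 lower. Chromosome 16 had a median of -0.12, with 52 of 415 higher and 173 lower. The 16 other autosomes had medians between -0.048 and 0.020. The shift was present in every culture, as measured over genes with a mean of at least 10 CPM. The LM2 cultures had medians of 0.26 to 0.27 on chromosome 15 and 0.21 to 0.22 on chromosome 6 relative to the LM1 mean. The LM1 cultures ranged from -0.0031 to 0.0058 and from -0.0042 to 0.0052. On this scale the LM2 cultures had medians of -0.10 to -0.034 on the 16 other autosomes. The LM2 values for chromosomes 6 and 15 thus stand against a baseline slightly below 0. Without chromosomes 6 and 15, 2822 genes were higher and 3107 lower among 12102 tested. The balance of all calls thus turned, while past 2-fold it did not (856 higher and 214 lower).

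**Figure D4:**
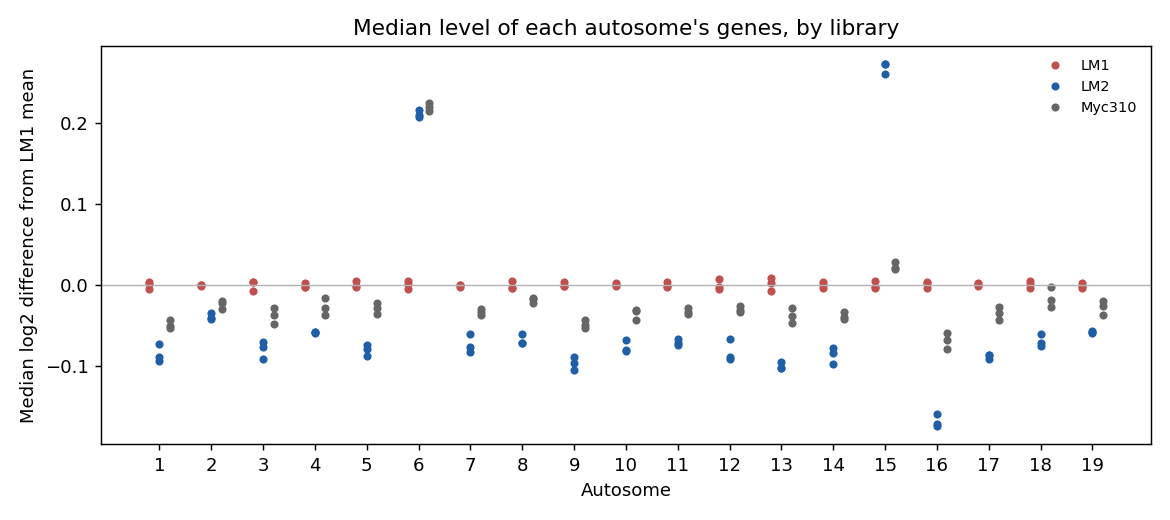
Median log2 difference from the mean of the 3 LM1 cultures, for each autosome and each LM1, LM2 and Myc310 culture, over genes with a mean of at least 10 CPM over these lines. The LM2 cultures stand above 0 on chromosomes 6 and 15 and furthest below it on chromosome 16, the Myc310 cultures lie beside LM2 on chromosome 6 and near LM1 on chromosome 15, and the 3 cultures of a line lie close together. On the other autosomes the LM2 cultures lie slightly below 0.

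On chromosome 15 the shift covered the whole length. The 11 consecutive runs of 50 tested genes had medians from 0.22 to 0.48. Relative to Myc310 the chromosome's median was 0.27 for LM2 and -0.056 for LM1, and LM3 minus LM1 was 0.49. LM1 thus lay near the parent on this chromosome and LM2 above it. Among all overlapping runs of 50 neighbouring genes, the one with the largest median, 0.51, went from Fmnl3 to Rarg (chr15:99317225-102257517), with 40 of its 50 genes higher and 0 lower. Its largest changes were 6.07 for the keratin Krt76, 2.92 for Krt7, 2.30 for Fignl2 and, for the elastase Cela1, a level of 0.373 ± 0.136 CPM in LM2 with LM1 at the floor. The sodium channel gene Scn8a in it was at 42.0 ± 3.78 CPM in LM1 and 93.8 ± 2.71 CPM in LM2. Fzd6, Gsdmd, Angpt1 and Myc lie on this chromosome and stood against its trend, since each was lower in LM2. In all, 21 genes of the chromosome were called lower. The call of Cela1 was lost without LM1 replicate 2 (adjusted p = 0.051).

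Chromosome 6 was divided. Its genes were split at the boundaries that minimised the summed absolute deviation from segment medians. The first 97 genes had a median of -0.089, the next 39, from Slc35b4 to Agk (chr6:34153380-40396762), a median of -0.56. The remaining 554 had a median of 0.33. In the short segment 33 genes were lower in LM2 and 1 higher. The median was 0.54 for LM1 minus Myc310 and -0.026 for LM2 minus Myc310, so that LM1 departed from the parent there. Besides Braf it holds Mtpn, which was at 767, 749 and 730.2 CPM in LM1 against 426, 396 and 405 CPM in LM2. Mtpn was lower in LM2 (log2 fold change -0.84, standard error 0.025, adjusted p = 2.00e-24). Trim24, a transcriptional cofactor, was at 74.1, 75.4 and 72.6 CPM in LM1 against 34.5, 31.8 and 35.1 CPM in LM2. Trim24 was lower in LM2 (log2 fold change -1.09, standard error 0.046, adjusted p = 3.11e-20). For these genes the LM1 cultures lay above the LM2 cultures, and Myc310 was at 466 ± 5.06 CPM and 48.7 ± 0.765 CPM.

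The long remainder of chromosome 6 behaved differently in its 2 portions when set beside Myc310. From Ephb6 to Cxcl12 (chr6:41605482-117181367, 352 genes) the median was -0.38 for LM1 minus Myc310 and -0.055 for LM2 minus Myc310. Further along (chr6:117716342-149563329, 200 genes) these were -0.085 and 0.21. The difference between the sister lines was nearly the same in both, 0.32 and 0.34, but in the first portion it was LM1 that was below the parent and in the second LM2 that was above it. Among all overlapping runs of 50 genes on this chromosome, the one with the largest median, 0.54, went from Pdia4 to Nod1 (chr6:47796141-54972612), with 34 genes higher and 2 lower. Its largest changes were in Gpnmb, a melanosome and lysosome glycoprotein at 2.61 ± 0.135 CPM in LM2 and at the floor in LM1 (at least 18.2-fold higher), and in Hoxa5, at 0.575 ± 0.138 CPM in LM2 with no count in LM1. Krba1 followed, at 8, 1 and 0 counts in LM1 and none in LM2 and so resting mainly on 1 library. Zfp783 had a log2 fold change of 4.08. The call of Krba1 was lost without LM1 replicate 1 (adjusted p = 0.35), LM2 replicate 1 (0.053), LM2 replicate 2 (0.053) or LM2 replicate 3 (0.052).

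On chromosome 16 the decrease was largest in the distal portion. The 95 genes from Cpox on (chr16:58670292-98082450) had a median of -0.33, with 65 lower and 6 higher, and the 320 before it a median of -0.081. For the distal genes the median was -0.24 for LM2 minus Myc310 and 0.061 for LM1 minus Myc310. They include the transcription factor Runx1, which was at 53.4, 52.3 and 57.2 CPM in LM1 against 35.1, 32.9 and 34.0 CPM in LM2. Runx1 was lower in LM2 (log2 fold change -0.64, standard error 0.052, adjusted p = 1.60e-12). The superoxide dismutase Sod1 was at 176 ± 0.333 CPM in LM1 and 136 ± 7.48 CPM in LM2. App, the amyloid precursor, was at 378 ± 3.80 CPM in LM1 and 305 ± 4.81 CPM in LM2, and the chromatin assembly factor Chaf1b at 47.2 ± 3.56 CPM in LM1 and 29.3 ± 1.39 CPM in LM2. Runx1 did not overlap between the lines. The boundaries of all these segments were chosen from the values themselves, so the medians describe them and no test was made. DNA content was not among the values analysed here, and the cause of the regional shifts was not tested.

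**Figure D5:**
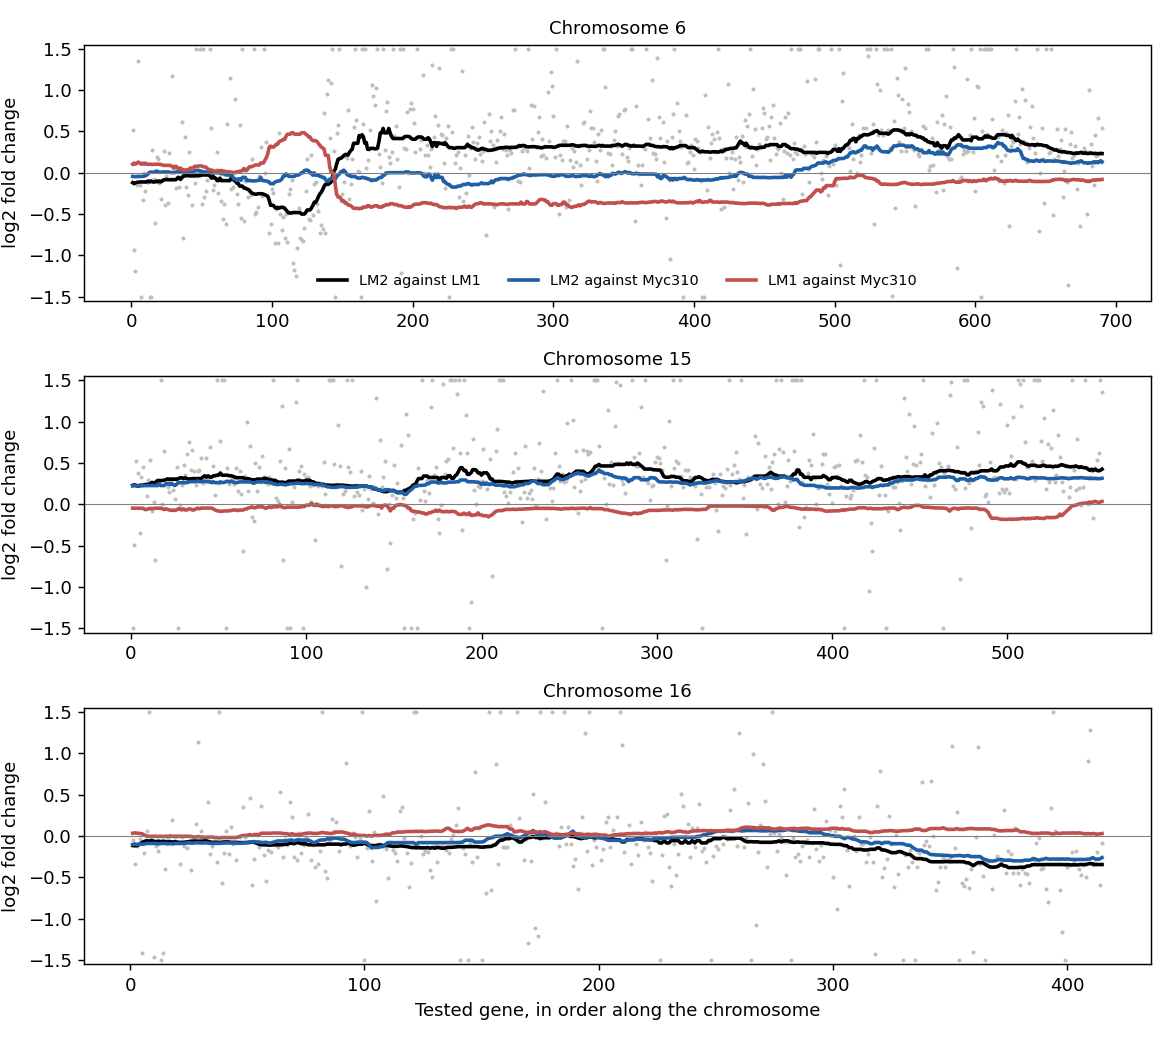
Log2 fold change of single genes (grey points, LM2 minus LM1, clipped at 1.5 in either direction) by gene order along chromosomes 6, 15 and 16, with lines for running medians over 50 neighbouring genes of LM2 minus LM1, LM2 minus Myc310 and LM1 minus Myc310. The LM2 minus LM1 line is above 0 along chromosome 15, dips and then rises on chromosome 6, and falls at the distal end of chromosome 16.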

How the data were processed

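RNA sequencing of 45 libraries of mouse mammary tumour lines was deposited as a table of counts per gene. Per the submitters' notes the authors aligned reads with STAR and estimated counts with RSEM on GRCm38 with GENCODE mouse release 21, and used R 4.2.2 and DESeq2 1.38.3. The deposited counts were whole numbers and were used as they stand. RSEM divides reads shared by similar genes, so counts of near-identical copies are uncertain. The library kit was directional, and the strand setting of the counting is not given in the sources used here. The 6 libraries compared held 19521444 to 22795359 counts.

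LM2 was tested against LM1 with edgeR 4.0.16 (limma 3.58.1, R 4.3.3) by the quasi-likelihood test, with TMM normalization and filterByExpr, in a fit to 30 control libraries of 10 lines, without the 3 of the line labelled MYAZ12_3i_NDI1. The p-values were adjusted by the Benjamini-Hochberg method over all 13795 genes tested, with a threshold of 0.05, and 7473 autosomal genes had an unadjusted p under it. CPM values were computed with TMM factors over all 45 libraries. Gene positions and types came from the GENCODE annotation of GRCm38 by gene identifier. Summaries were made with Python 3.11.15, numpy 2.4.6 and pandas 2.3.3. DESeq2 1.42.0 was an alternative. On data simulated for this comparison over 13642 genes, edgeR recovered 41 of 50 genes changed by 1.5-fold, 50 of 50 at 2-fold, 48 of 50 at 4-fold and 48 of 50 at 0.25-fold, and called 12 unchanged genes.

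The members and the lists were chosen with earlier results of these data known. The 38 lists hold 898 genes, of which 877 were matched by symbol. Genes named were the 12 largest increases and 12 largest decreases among called autosomal protein-coding genes with at least 10 CPM in the higher line and no overlap between the cultures, up to 6 genes per direction at the floor in 1 line, the 4 largest called changes of each list with members that account for it, the study's cystine and glutathione genes, and the largest changes in runs of 50 neighbouring genes whose median was over 0.5 in size. Braf, Mtpn, Trim24, Myc, Runx1, Chaf1b, Sod1, App, Scn8a, Srebf1, Srebf2, Nes, Ccn1, Ccn2, Foxf1 and Fendrr were named after their values were seen. Lists are described by counts and medians with no test. Promoter sequences came from the RefSeq table of GRCm38.p6. Columns of the other lines and media entered only as stated. A few genes that the rule takes are not reported here, though the counts and medians of their lists include them.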

Additional observations from a re-analysis of the deposited data

How the results depend on the processing

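No called difference named above changed direction under the alternatives tried, which were RLE and upper-quartile normalization, filters of at least 10 counts in every library and of 1 count in any, fits to all 45 libraries, to the 9 libraries of LM1, LM2 and LM3 and to the 6 of LM1 and LM2, DESeq2, a replicate block, and leaving out each LM1 and each LM2 culture. The number of genes called was 3017 to 3630 higher and 2872 to 3292 lower. DESeq2 called 3494 higher and 3043 lower. Past 2-fold the filter of 10 counts in every library left 314 higher and 66 lower, since it removes every gene with fewer counts in any of the 30 libraries, and the fit to 6 libraries gave 816 and 188. The chromosome 6 median was 0.26 with that filter and 0.28 with the filter of 1 count, in the fit to 6 libraries and in the fit to 9, and the chromosome 15 median was 0.33 with either filter. Leaving out 1 culture gave 3378 to 3430 higher, 2872 to 2929 lower, 957 to 977 higher and 222 to 250 lower past 2-fold, and medians of 0.27 to 0.28 on chromosome 6 and 0.33 to 0.34 on chromosome 15. The count without chromosomes 6 and 15 was chosen after seeing the data. Over 15 alternatives, the 517 called genes among the named genes and list members kept their call in 7355 gene and alternative pairs and lost it in 249, and the 226 not called gained one in 112 pairs. Medians moved by more than the spread in 127 list and alternative pairs and by less in 427, and for chromosomes in 103 pairs and by less in 182.

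Calls lost without 1 library are given beside the genes above. The cause was not tested. Most of these genes had few counts, which limits what the depth can show. Over the lists, the number of members called higher fell by more than 1.5 times in 10 list and alternative pairs, with the filter of 10 counts in every library in each but that of the chemokines and cytokines, and the 26 interferon-stimulated genes became 14. The number called lower, often 1 or 2 to begin with, fell so in 34 pairs and rose so in 4.

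With the replicate number as a block, 3594 genes were higher and 3205 lower, 983 and 239 past 2-fold, and among the genes named the call of Cbr3 (adjusted p = 0.055) was lost. The numbers do not pair the samples: the deviations of same-numbered LM1 and LM2 libraries from their line means had correlations across genes of 0.051, -0.0064 and 0.0093, and libraries of a line differed by more than sampling noise, so none was counted as deposited more than once.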
